A study of Mus musculus with 12 samples.

Results

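Grb10 (ENSMUSG00000020176.17), a signalling adaptor gene on mouse chromosome 11, is described here over all 12 libraries of a study of embryoid bodies with and without the histone acetyltransferase Gcn5 (gene symbol Kat2a). It is 1 of the 18269 genes listed, and it was chosen by its measured values in these same data, as the gene whose level differed most clearly between null and floxed samples. Its differences between the genotypes are therefore given as a description without a test. Embryoid bodies, aggregates in which embryonic stem cells begin to differentiate, were made from the Gcn5 null line 4C2 (Gcn5-/-) and from the Gcn5 floxed line 4_1 (Gcn5 fx/fx), both of C57BL/6 strain, and harvested at day 5 and day 3. Each of the 4 groups holds 3 libraries by their labels, although the series text speaks of duplicates, and nothing in the labels says which libraries come from separate cultures. Each genotype is represented by 1 line, so line and genotype cannot be told apart, and the spread between libraries may be technical. The recombinase that removed the floxed part in the null line is not named in the labels.

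Grb10 protein binds through its SH2 and BPS domains to activated receptor tyrosine kinases, above all the insulin and IGF1 receptors, and dampens their signal. It is also a substrate of mTORC1, and mice that inherit a disrupted maternal copy grow larger. The gene is imprinted: in most mouse tissues its RNA comes from the maternal copy through an upstream promoter, whereas neurons use the paternal copy through downstream promoters.

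On the GRCm38 (mm10) build the gene lies at chr11:11930508-12038683 on the minus strand, spans 108176 bp, and has 9 annotated transcripts, 6 of them protein-coding, with 9 distinct starts. No other annotated gene overlaps it. The file gives 1 value for the whole gene, and the start used and the parental copy cannot be read from it. To show how unlike annotated starts can be, the 250 bases before each of 2 RefSeq starts (GRCm38.p6) follow. They run 5′ to 3′ on the gene's strand, with every CpG in capitals. DNA methylation, the mark behind imprinting, is placed on CpG. Whether either window lies in the region methylated in the imprint was not determined. Upstream and downstream here only order these 2 starts, and the annotated gene begins farther upstream, at 12038683. The bases after 1 of the 2 starts occur in 1 of the 9 transcripts, and those after the other in 0. Which promoter each start belongs to was not determined.
Window before the upstream start, chr11:12037421-12037670, minus strand: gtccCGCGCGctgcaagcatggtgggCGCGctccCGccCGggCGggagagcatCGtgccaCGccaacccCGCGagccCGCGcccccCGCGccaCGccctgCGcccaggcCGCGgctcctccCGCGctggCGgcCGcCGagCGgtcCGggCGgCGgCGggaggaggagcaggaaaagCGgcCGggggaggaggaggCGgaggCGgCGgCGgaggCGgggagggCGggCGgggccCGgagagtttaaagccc
Window before a downstream start, chr11:12027972-12028221, minus strand: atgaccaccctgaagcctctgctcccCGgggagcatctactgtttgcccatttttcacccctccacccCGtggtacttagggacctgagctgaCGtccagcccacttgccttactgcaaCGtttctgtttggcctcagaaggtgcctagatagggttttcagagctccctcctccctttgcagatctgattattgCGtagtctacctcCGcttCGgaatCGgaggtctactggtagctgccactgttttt
The upstream window holds 40 CpG and is 81.2% G and C. Among 32851 windows of this length before mouse starts, 1.31% hold at least as many CpG, and the median is 6. The downstream window, with 8 CpG and 54% G and C, is reached in CpG number by 43.0% of windows. The hexamer TGCCGC, bound by the imprinting factor ZFP57 when methylated, was searched on both strands; neither window contains it, and 8.68% of all windows do. The E-box CACGTG, a sequence Myc can bind, is also in neither, against 6.02% of all windows. Only these windows were searched, so the hexamers may occur at other starts or elsewhere in the gene. The table has no reads by position, so these letters are shown as context only.

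At day 5, Grb10 RNA was at 0.977% of the floxed level in null embryoid bodies and among the most abundant in floxed ones. The null libraries held 245, 210 and 193 normalised reads (read counts divided by 1 size factor per library), against 17999.9, 25136 and 23248 in the floxed libraries. All 3 null libraries were far below all 3 floxed ones, and the lowest floxed value was 73.4 times the highest null value. The means were 216 ± 26.5 and 22128 ± 3698 (SD, n = 3 each), so null samples kept 0.977% of the floxed level, a 102-fold lower mean. On the log2(value + 1) scale, which is used for every log2 change here, the change was -6.66 ± 0.17 (SE from limma). The whole reads behind the values numbered 217, 180 and 217 in null libraries, against 22623, 29998 and 26631 in floxed ones, so the null level is low but well counted. Sorted by normalised count without regard to length, Grb10 took places 9515.5, 9958.5 and 10169 in the null libraries (ties share a place), against 123, 59 and 60 in the floxed ones. In bulk samples, fewer cells of a type that express the gene and less RNA per cell cannot be told apart.

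At day 3 the same difference was present and smaller. Null libraries held 1480, 1544 and 1013 normalised reads, against 10255, 9649 and 13357 in floxed libraries. The groups did not overlap, and the lowest floxed value was 6.25 times the highest null value. Means were 1345 ± 289.7 in null and 11087 ± 1989 in floxed samples (SD, n = 3 each), or 12.1% of the floxed level and 8.24-fold lower. The log2 change was -3.05 ± 0.17 (SE). Null library 3 was the lowest and floxed library 3 the highest of their groups, and without all 4 libraries numbered 3 the change was -2.72. Taken by replicate number, the log2 differences were -2.79, -2.64 and -3.72 at day 3 and -6.19, -6.90 and -6.90 at day 5.

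Over time Grb10 moved in opposite directions in the lines. In the null line every day 5 library was below every day 3 library, a 6.23-fold lower mean, and a log2 change of -2.61 ± 0.17 (SE). In the floxed line every day 5 library was above every day 3 library, by 1.35 times at the nearest, with a log2 change of 0.997 ± 0.17 (1.996-fold). The same values entered the choice of the gene, so these changes too are given without a test. The genotype difference was larger at day 5 by -3.61 ± 0.25 on the log2 scale, a ratio of ratios of 12.2. This value is built from the contrasts that picked the gene and is likewise a description. Between days limma called, at a Benjamini-Hochberg adjusted p under 0.05, 7571 of 17000 genes in the null line (44.5%; 22.6% higher and 21.9% lower at day 5) and 7094 in the floxed line (41.7%; 22.5% higher and 19.2% lower), and Grb10's change in the null line was the 84th lowest.

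**Figure D1:**
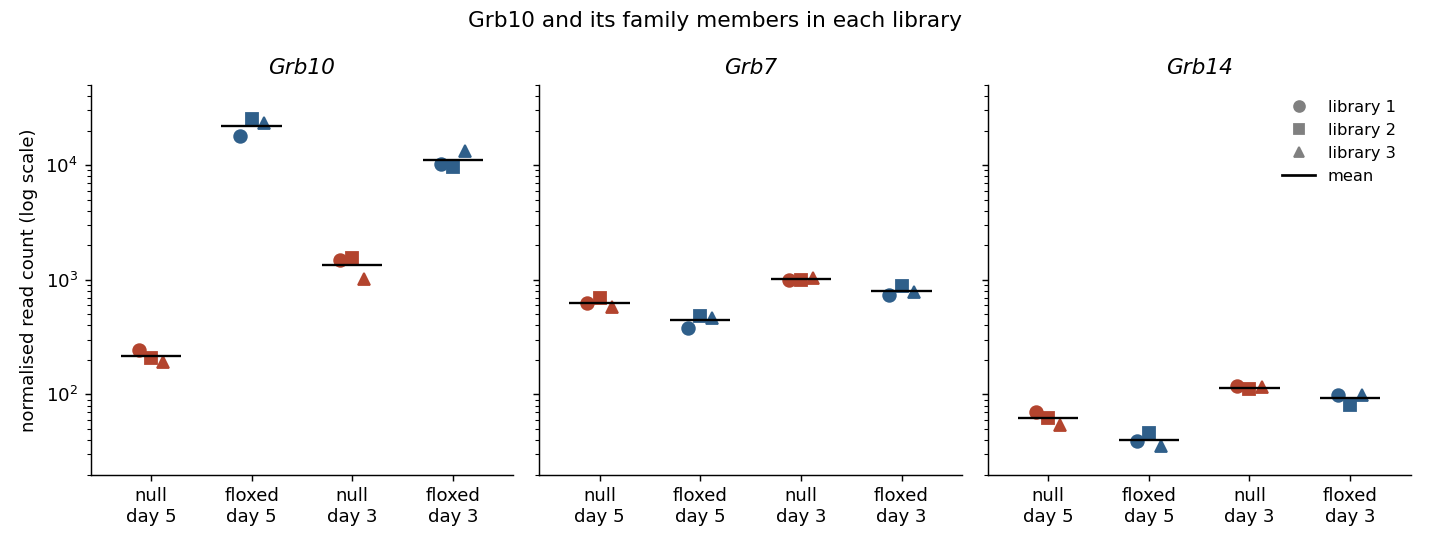
Normalised read count (log axis) of Grb10, Grb7 and Grb14 in each of the 12 libraries; marker shape gives the library number, red is null, blue is floxed and the bar is the group mean. Grb10 means run between 216 in null day 5 and 22128 in floxed day 5 samples, while both relatives are higher in null than floxed samples on average and lower at day 5 than day 3.

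Kat2a, the targeted gene, checks the labels. It had 739, 852 and 860 normalised reads in null and 2161, 2391 and 2071 in floxed libraries at day 5 (-1.43 ± 0.11, adjusted p = 1.6e-05, limma). At day 3 it had 649, 614 and 840 in null and 2077, 2226 and 2380 in floxed libraries (-1.68 ± 0.11, adjusted p = 1.01e-05). Transcript therefore remained in the null line, and whether it lies outside the deleted part is not known from 1 value per gene. Kat2a lies 88.7 Mb from Grb10 on the same chromosome. The groups did not overlap at either day.

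Set among all 17000 genes tested, Grb10 stood first by limma's moderated t at both days, which is what chose it. At day 5 its t was -38.4, and the next were Igf2r (-12.7), Kat2a (-12.6) and Cdkn1c (-12.3). At day 3 its t was -17.6, followed by Kat2a (-14.7), Mirg (-11.5) and H13 (-9.81), a signal peptide peptidase gene. By size of the log2 change Grb10 was the lowest at day 5, with Nccrp1 next at -4.03, and the eighth lowest at day 3, where Mirg (-4.96), Rian (-4.67) and Meg3 (-4.43), noncoding RNAs of one imprinted cluster on chromosome 12, came before it.

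Grb7 and Grb14 encode the other adaptors of the family, with the same domain order. Grb7, also on chromosome 11 (98446394 to 98455373), averaged 633 normalised reads in null and 442 in floxed samples at day 5, and 1007 in null and 803 in floxed samples at day 3. It was higher in null samples at day 5 (0.52 ± 0.11, adjusted p = 0.00422, limma). The day 3 change of 0.33 ± 0.11 did not pass (adjusted p = 0.0878), although it passed with the replicate number as a block (adjusted p = 0.0358). With chromosome 11 genes centred, to take off the shift described below, the Grb7 change was 0.16 at day 5 (adjusted p = 0.321) and -0.06 at day 3. Grb14, on chromosome 2 (64912476 to 65024987), averaged 62.1 in null and 40.3 in floxed samples at day 5 and was higher in null samples (0.61 ± 0.18, adjusted p = 0.0252). That call was lost without null day 5 libraries 1 (adjusted p = 0.0809) or 2 (0.0609), without floxed day 5 libraries 1 (0.0658) or 3 (0.0801), and with only the day 5 groups in the fit (0.0851). At day 3 it averaged 115 in null and 93.7 in floxed samples (0.29 ± 0.18, adjusted p = 0.366). Both relatives fell with time in both lines, Grb7 by 0.67 in null and 0.86 in floxed samples and Grb14 by 0.88 and 1.20 (log2; adjusted p at most 0.00168 for these 4 changes).

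The levels of the 3 genes can be set side by side per kb of exon. The length used joins the exons of all annotated transcripts, 9089 bases for Grb10, 3365 for Grb7 and 7185 for Grb14. The transcripts in use are not known, so the levels and ratios depend on this choice. At day 5 Grb10 had 23.8 normalised reads per kb in null and 2435 in floxed samples, Grb7 had 188 and 131, and Grb14 had 8.64 and 5.61. The order in floxed samples was Grb10, Grb7, Grb14, and in null samples Grb7, Grb10, Grb14, with no overlap of libraries between neighbours in either order. At day 3 the values were 148 in null and 1220 in floxed samples for Grb10, 299 and 239 for Grb7, and 15.9 and 13.0 for Grb14, in the same orders. The ratio of Grb10 to Grb7 per kb was 0.126 in null and 18.5 in floxed samples at day 5, and 0.495 in null and 5.11 in floxed samples at day 3.

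Grb10 ran against its own chromosome. Of the other 1427 listed genes of chromosome 11, 1331 were tested, and their median log2 change was 0.33 at day 5 and 0.36 at day 3, while the other autosomes had medians of -0.04 and -0.02. At day 5, 550 of them were higher in null samples (41.3%) and 34 lower, against 13.0% higher and 13.5% lower among all genes tested. At day 3, 404 were higher (30.4%) and 2 lower, against 4.09% and 2.03%. The Grb10 change less the chromosome's median was -6.99 at day 5 and -3.41 at day 3, and no other tested gene of the chromosome was as low. The lowest others were Krt42, a keratin gene, at day 5 (-2.66 ± 0.51) and Glra1, a glycine receptor subunit gene, at day 3 (-1.89 ± 1.004, adjusted p = 0.288).

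The shift was spread along the chromosome. In windows of 10 Mb from Grb10 outward the median ranged over 0.15 to 0.38 at day 5 and 0.30 to 0.40 at day 3, and the 97 genes within 10 Mb on the side of the chromosome's start had medians of 0.34 and 0.33. Less the chromosome's median log2 value in the same library, Grb10 stood at -1.16, -1.42 and -1.60 in null day 5 libraries and at 5.33, 5.85 and 5.70 in floxed day 5 libraries. At day 3 it stood at 1.62, 1.69 and 0.94 in null libraries, against 4.72, 4.64 and 5.11 in floxed libraries. With the chromosome centred in the fit, Grb10's change was -7.03 at day 5 and -3.44 at day 3. Whether the number of copies of chromosome 11 differs between the lines was not tested.

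**Figure D2:**
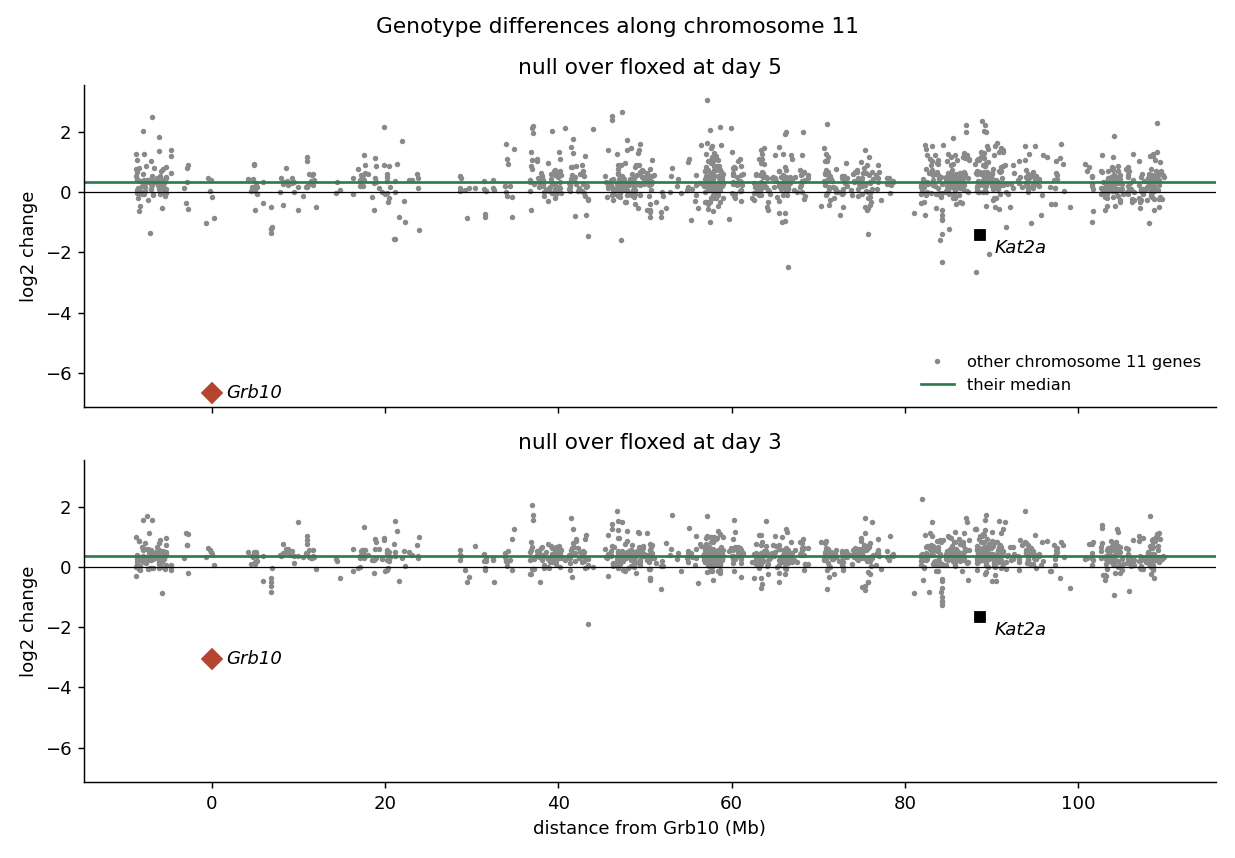
Log2 change of null over floxed for each tested gene of chromosome 11 against its distance from Grb10 in Mb, day 5 above and day 3 below; the green line is the median of the other genes (0.33 and 0.36). Grb10 lies alone at -6.66 and -3.05, and Kat2a, the targeted gene, at -1.43 and -1.68.

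None of the tested genes beside Grb10 was as low as it was. Within 3 Mb, 12 of 15 annotated protein-coding genes are listed, and of 14 listed genes of any type 11 were tested. At day 5, 3 were higher and 1 lower in null samples, and at day 3, 3 were higher and 0 lower (limma, the others did not pass). The 3 higher genes are 27.3% of the 11, and the 1 lower is 9.09%. Farther out on the chromosome 41.4% were higher and 2.50% lower at day 5, and 30.4% and 0.152% at day 3. Over all genes tested the shares were 13.0% and 13.5% at day 5, and 4.09% and 2.03% at day 3. The median of the 11 was 0.03 at day 5 and 0.55 at day 3. The nearest gene, Ddc, encodes aromatic amino acid decarboxylase, is itself imprinted in mouse heart, and ends 32.4 kb away. Ddc had 193, 149 and 222 normalised reads in null and 220, 163 and 251 in floxed libraries at day 5, where the groups overlapped (-0.16 ± 0.28, adjusted p = 0.712). At day 3 it had 112, 139 and 206 in null and 84.2, 95.4 and 160 in floxed libraries, which also overlapped (0.44 ± 0.28, adjusted p = 0.376).

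Fignl1, a DNA repair ATPase gene 122 kb away, was higher in null samples at both days. Its null libraries held 3851, 4180 and 4133 and its floxed libraries 3057, 3063 and 3185 normalised reads at day 5 (0.39 ± 0.06, adjusted p = 0.000908). At day 3 the change was 0.48 ± 0.06 (adjusted p = 0.00145), and with chromosome 11 centred the values were 0.02 and 0.09 and no longer passed (adjusted p = 0.788 and 0.384). Cobl, an actin nucleator gene 198 kb away on the other side, was the 1 lower neighbour. It had 320, 179 and 197 in null and 564, 359 and 347 in floxed libraries at day 5, without overlap (-0.87 ± 0.23, adjusted p = 0.0139). The call was lost without null day 5 libraries 2 (adjusted p = 0.0588) or 3 (0.0515) or floxed day 5 library 1 (0.0602). At day 3 the Cobl change was 0.05 ± 0.23 (adjusted p = 0.920), and -0.33 with the chromosome centred.

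Farther out, Hus1 (0.34 and 0.72), a checkpoint clamp gene, and Upp1 (0.89 and 1.08), a uridine phosphorylase gene, were higher in null samples at day 5 and day 3. Centring the chromosome ended those calls except that of Hus1 at day 3, and turned Hus1 to -0.02 at day 5. The Upp1 call was also lost at day 5 without null day 5 library 3 (adjusted p = 0.0537), and at day 3 without null day 3 library 3 (0.0710) or floxed day 3 libraries 1 (0.0586) or 2 (0.0531). Ikzf1, a lymphoid transcription factor gene 158 kb away (0.03 ± 0.30 and 0.55 ± 0.30), and the next genes beyond Cobl, Vstm2a (0.42 and 0.50) and Sec61g (0.02 and 0.09), were not called at either day.

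**Figure D3:**
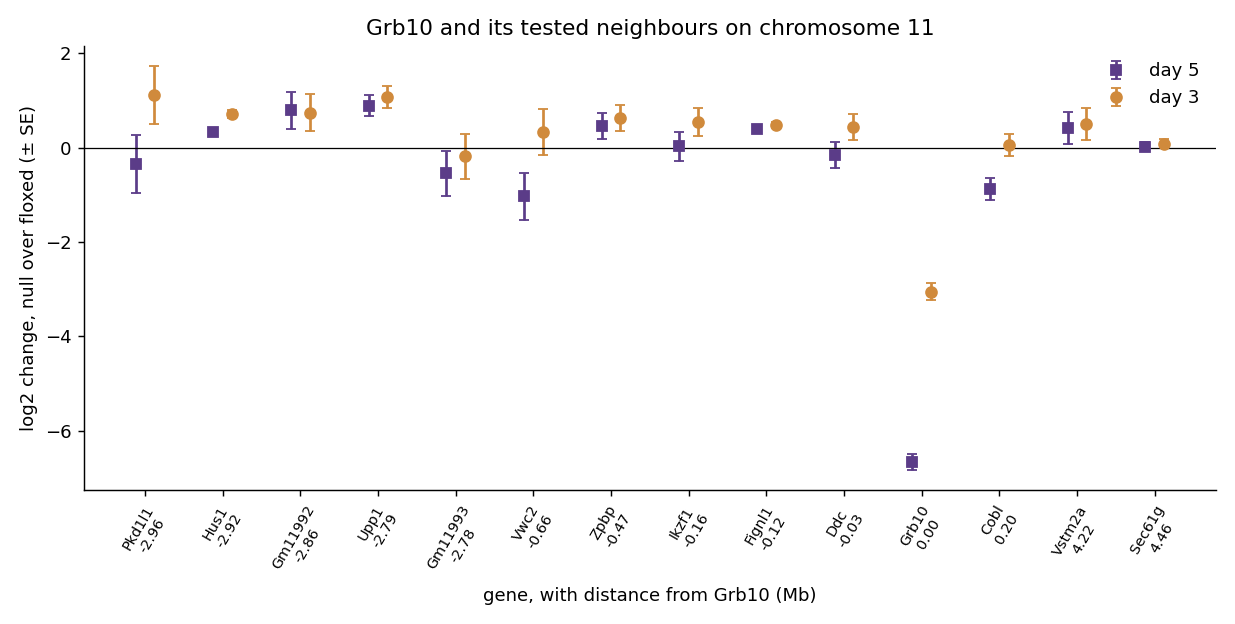
Log2 change of null over floxed (± SE from limma, 3 libraries a group) for Grb10 and the tested genes within 3 Mb, with Vstm2a and Sec61g beyond, in order along the chromosome; purple squares are day 5 and orange circles day 3. Neighbours lie between -1.03 and 1.11, and Grb10 at -6.66 and -3.05.

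The insulin and IGF1 receptor genes passed the test at neither day, while the receptor substrate genes Irs1, Irs2 and Irs4 were lower in null samples at day 5, and Irs2 also at day 3. Of 25 genes of insulin and IGF receptor signalling, 24 were tested. At day 5, 2 were higher and 6 lower, against 13.0% and 13.5% of all genes tested, and the list's median was -0.08, against -0.02 over all genes. The count of lower genes was 3 without null day 5 library 1. At day 3, 1 was higher and 3 lower, against 4.09% and 2.03%, with a median of -0.07, against -0.00.

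The receptor genes Insr (-0.13 ± 0.16 at day 5, -0.04 ± 0.16 at day 3) and Igf1r (0.20 ± 0.13 and 0.28 ± 0.13) did not pass the test at either day. Irs4, a substrate gene on the X chromosome, had 88.2, 71.1 and 65.1 normalised reads in null and 690, 299 and 393 in floxed libraries at day 5 (-2.53 ± 0.28, adjusted p = 0.000131). Irs1 was also lower, with 758, 868 and 643 in null and 1770, 1652 and 1659 in floxed libraries (-1.17 ± 0.17, adjusted p = 0.000656). Neither overlapped between the groups at day 5. Genes chosen by the smallest p seldom overlap, and the share of all genes without overlap was not counted for any comparison here. Irs2 was lower at both days, by 0.30 ± 0.10 at day 5 and by 0.74 ± 0.10 at day 3 (adjusted p = 0.00175 at day 3). The day 5 call of Irs2, smaller than those of Irs1 and Irs4, was not checked singly under other settings. Irs1 and Irs2 rose with time in both lines, by 1.78 and 1.66 in null and by 2.34 and 1.21 in floxed samples. Akt2, Ptpn1 and Sh2b2, a kinase, a phosphatase and an adaptor of the pathway, made up the other lower genes of day 5, at -0.38, -0.31 and -0.80.

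Inppl1, a lipid phosphatase gene (-0.53 ± 0.10, adjusted p = 0.00804), and Pik3r1, a regulatory subunit of PI3 kinase (-0.44 ± 0.10, adjusted p = 0.0205), were lower at day 3. The Pik3r1 call was lost without null day 3 libraries 2 (adjusted p = 0.0604) or 3 (0.0846) or floxed day 3 libraries 1 (0.0687) or 3 (0.0675). Foxo1, a transcription factor restrained by AKT, was higher in null samples at day 5 (0.76 ± 0.14, adjusted p = 0.00203). Grb2, the adaptor that links receptors to RAS, was higher at day 5 (0.39 ± 0.08) and day 3 (0.49 ± 0.08). It lies on chromosome 11, and with that chromosome centred it was at 0.03 and 0.11 and was not called.

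Of 14 mTORC1 and mTORC2 genes, 2 were higher and 4 lower at day 5 (median -0.04; 2 lower without null day 5 library 2), and 1 was higher and 2 lower at day 3 (median -0.01). Of all genes tested, 13.0% were higher and 13.5% lower at day 5, and 4.09% and 2.03% at day 3. All the higher ones lie on chromosome 11. They are Rps6kb1, the S6 kinase gene (0.37 ± 0.08 and 0.34 ± 0.08), and at day 5 Rptor, a subunit of mTORC1 (0.38 ± 0.09), and with that chromosome centred Rps6kb1 stood at 0.01 at day 5 and -0.05 at day 3 and Rptor at 0.01. The Rps6kb1 call of day 3 was lost without null day 3 libraries 2 (adjusted p = 0.0717) or 3 (0.0890) or floxed day 3 libraries 1 (0.0935) or 3 (0.0515), and that of Rptor without floxed day 5 library 3 (0.0504). Tsc2, an inhibitor of mTORC1, was lower in null samples at both days. It had 1703, 1340 and 1232 normalised reads in null and 2560, 2634 and 2181 in floxed libraries at day 5 (-0.80 ± 0.11, adjusted p = 0.000386) and changed by -0.54 ± 0.11 at day 3 (adjusted p = 0.0126). Tsc2 exons overlap those of Pkd1 on the opposite strand, and whether counting used the strand is not stated. Exons of Inppl1, Rps6kb1, Igf2, Hnrnpu and Zrsr1 also overlap those of a gene on the opposite strand. Of 10 genes whose proteins are known to bind Grb10, 1 was higher at each day, Map2k1, an ERK pathway kinase gene (0.32 ± 0.06 and 0.34 ± 0.06). The ubiquitin ligase gene Nedd4 (-0.16 and -0.08) was not called at either day.

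**Figure D4:**
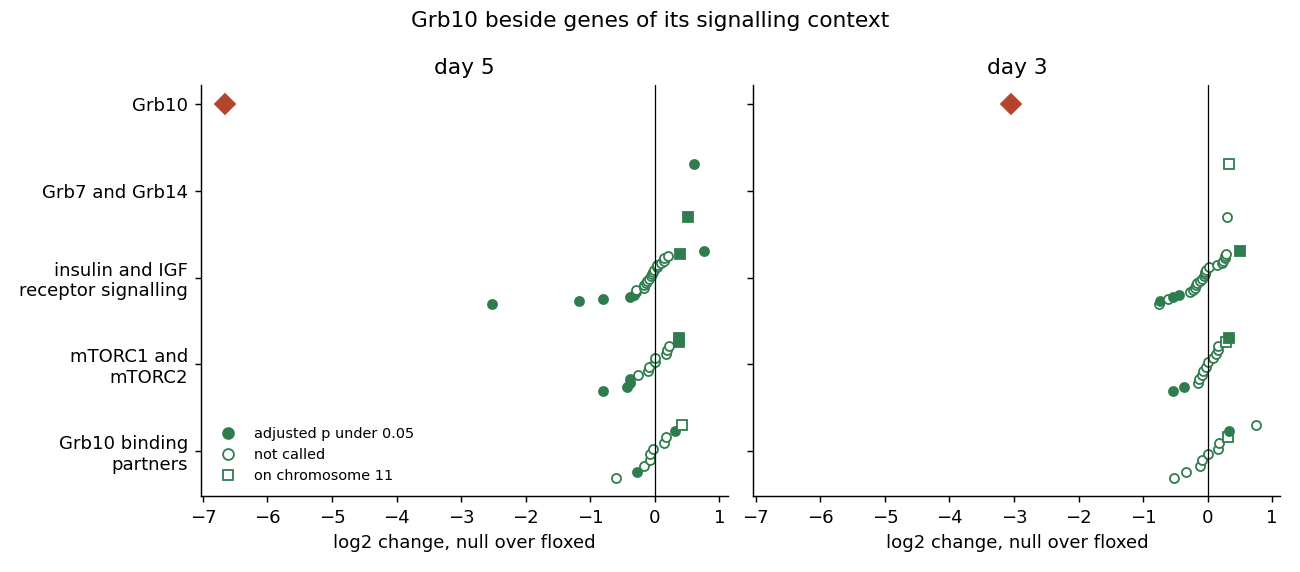
Log2 change of null over floxed at day 5 (left) and day 3 (right) for Grb10, its relatives Grb7 and Grb14 and the tested members of 3 lists; filled symbols passed the test, open ones did not, and squares lie on chromosome 11. Members spread around 0, with Irs4 the lowest at -2.53 at day 5, and Grb10 lies at -6.66 and -3.05.

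Among other imprinted genes, the called ones that are known to be expressed from the maternal copy, as Grb10 is in most tissues, were all lower in null samples. Of 17 listed as maternal, 16 were tested, and 0 were higher and 7 lower at day 5 (median -0.67) and 0 higher and 6 lower at day 3 (median -0.60). Of 24 listed as paternal, 8 were higher and 2 lower at day 5 (median -0.02) and 6 higher and 0 lower at day 3 (median 0.46). The background shares are those given above for the insulin list, and with only libraries 1 and 2 a maternal gene was called higher at day 5. The count of higher paternal genes at day 5 was 4 without null day 5 library 2. Of the maternal genes, Meg3, Rian and Mirg share a cluster on chromosome 12. H19 and Cdkn1c lie near each other on chromosome 7 (from 142575529 and 143458339). The counted genes are therefore not all separate loci. Whether the listed imprinted genes changed in their parental copy was not measured.

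Cdkn1c, a cell cycle inhibitor gene, had 165, 253 and 434 normalised reads in null and 2357, 2324 and 2691 in floxed libraries at day 5 (-3.22 ± 0.26, adjusted p = 1.97e-05). H19, a noncoding RNA gene beside Igf2, had 623, 870 and 212 in null and 3336, 6081 and 3284 in floxed libraries at day 5. The H19 change was -3.06 ± 0.47 at day 5 and -3.02 ± 0.47 at day 3 (adjusted p = 0.00332 at day 3). None of the libraries of Cdkn1c or H19 overlapped between genotypes at day 5, with the same limit as for Irs1 and Irs4. Igf2r, which clears IGF2, had 4350, 4137 and 4295 in null and 9326, 10084 and 8469 in floxed libraries at day 5 (-1.12 ± 0.09, adjusted p = 1.59e-05). At day 3 it had 6876, 5726 and 6936 in null and 7564, 8134 and 8763 in floxed libraries (-0.33 ± 0.09, adjusted p = 0.0455), a call lost with edgeR (0.0533) and without any one of 10 of the 12 libraries (0.0544 to 0.133). Of the paternal genes, Zrsr1, the other imprinted gene of chromosome 11 in these lists, was higher in null samples (1.18 ± 0.13 and 0.90 ± 0.13); its exons overlap Commd1 on the opposite strand. Peg10 and Sgce, neighbours on chromosome 6, were higher as well, at 0.90 and 1.005 at day 5 and 1.62 and 1.20 at day 3. Mest, also listed as paternal, went the other way at day 5, where 2 paternal genes were lower. It averaged 12786 normalised reads in null and 29227 in floxed samples (-1.18 ± 0.23, adjusted p = 0.00343, limma). Mest exons overlap those of Copg2 on the opposite strand. Igf2, whose product acts through the receptors that Grb10 restrains, did not pass at either day (0.57 ± 0.29 and 0.10 ± 0.29).

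The change of the genotype difference between days was tested for the other imprinted genes. The interaction of genotype and day called 81 of 17000 genes (0.476%), and 1 of the tested imprinted genes, Igf2r (-0.79 ± 0.12, adjusted p = 0.0308). With the replicate number as a block it called 443 genes, among them 2 maternal and 2 paternal imprinted genes, all with negative values. That Igf2r call was lost without null day 3 library 1, floxed day 3 libraries 1 or 2, or any null day 5 library (adjusted p 0.0529 to 0.0805). Meg3, Rian and Mirg had positive interaction values (0.50, 0.90 and 1.04), H19 stood at -0.04 and Cdkn1c at -1.31, none of which passed without the block.

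**Figure D5:**
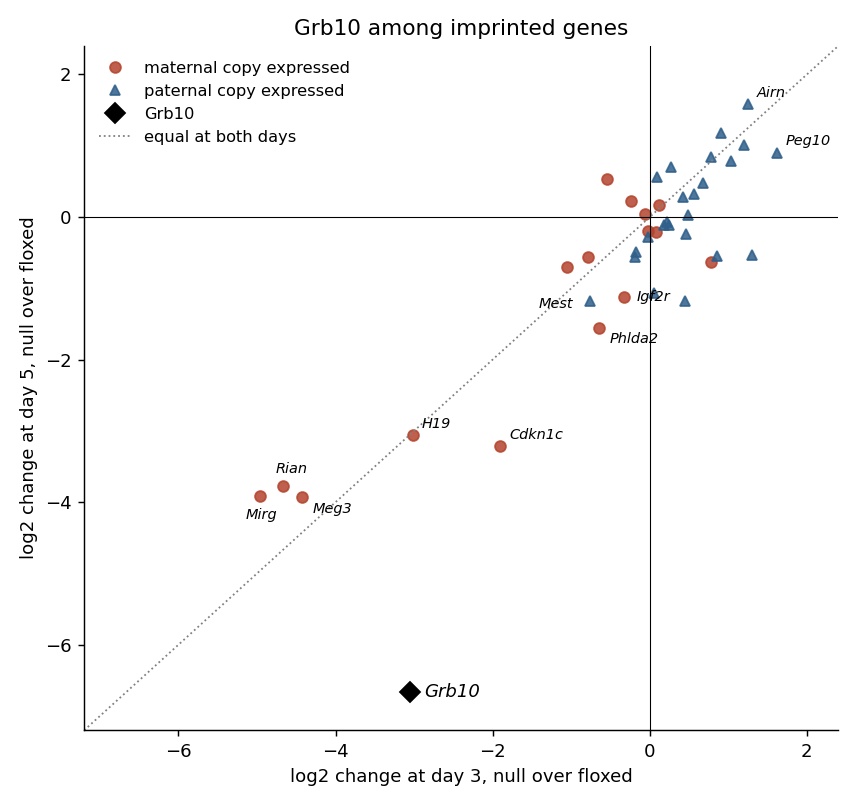
Log2 change of null over floxed at day 5 (vertical) against day 3 (horizontal) for tested imprinted genes, circles for maternal and triangles for paternal expression, with Grb10 as a black diamond; the dotted line marks equal changes. Grb10 lies far under the line at -6.66 and -3.05, while H19 lies close to it and Mirg, Rian and Meg3 lie above it.

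The genes whose log2 values ran most like those of Grb10 over the 12 libraries, of 11525 compared, were Tubb5 (Pearson r = 0.971), Rrm2 (0.967), Mettl1 (0.966), Cln8 (0.960) and Igf2r (0.959). These are a tubulin gene, a ribonucleotide reductase subunit gene, a tRNA methyltransferase gene, a lysosome biogenesis gene and the IGF2 receptor gene. The r is a description, since the 12 points share 4 group means, and the sizes differ: at day 5 Tubb5 changed by -0.41 ± 0.06 and Mettl1 by -0.65 ± 0.09, against -6.66 for Grb10. Within groups, deviations from the group mean ran most like those of Grb10 for Fmn2 (0.868), Parvb (0.865), Hnrnpa3 (0.865), Zfp280c (0.857) and Hnrnpu (0.831).

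Cell type markers stand beside these values as sums over each list. Null day 5 libraries held 4812 to 7615 normalised reads of 6 pluripotency genes and floxed day 5 libraries 8734 to 12361, and 3 of the 6 were lower in null samples and 0 higher, against 13.5% lower and 13.0% higher among all genes tested at day 5. For 10 neuronal genes, null day 5 libraries held 4326 to 5832 and floxed day 5 libraries 4809 to 14869, and 1 of the 10 was lower and 0 higher. For 3 definitive endoderm genes, null day 5 libraries held 476 to 792 and floxed day 5 libraries 963 to 1689, and 2 of the 3 were lower. For 4 neural progenitor genes, null day 5 libraries held 5139 to 6861 and floxed day 5 libraries 7754 to 12616, and 1 of the 4 was lower. Among 5 primitive streak and mesoderm genes 1 was lower at day 5, and of 6 extraembryonic endoderm genes and 7 feeder fibroblast genes 0 were called. At day 3, 1 neuronal gene was lower and 0 of the other markers were called. No marker of these lists was at 0 in all 3 libraries of a group. The part of these markers in the Grb10 difference was not tested.

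Recovered reads per library numbered 18022071 to 26803369 in null and 23090915 to 29446068 in floxed samples, and no pair of libraries within a group agreed within sampling noise (lowest chi-squared per degree of freedom 10.5). In all, 4509 of 17000 genes were called at day 5 (26.5%) and 1041 at day 3 (6.12%), the last count being 1866 with the replicate block and that of the interaction 443.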

How the data were processed

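Total RNA of 12 embryoid body samples was sequenced from strand-specific libraries amplified over 8 cycles, per the labels' protocols. The deposited table holds 1 signal value per gene and sample: counts that the authors divided by 1 size factor per sample, as the values show. Divided by the smallest value of its column, each value above 0 was whole (100%, tolerance 0.01), so reads could be recovered. TopHat2 2.0.10, DESeq 1.16.0, CASAVA 1.8.2, HTSeq 0.6.0 and mm10 are named in the submitters' processing notes; their roles and the strand setting are not given in the sources used here. Each listed gene has at least 10 reads in some library.

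Symbols and positions came from GENCODE M21 (GRCm38) by gene ID without its version: 18199 of 18269 IDs matched, 12740 in the same version, and 70 had no symbol. With a pseudocount of 1, log2 values of the 12 samples were fitted by limma-trend (limma 3.58.1, R 4.3.3) to 4 group means, 8 residual and 5.00 prior degrees of freedom, on 17000 genes with a group mean of at least 10 (1269 were lower). Tests were two-sided, and genes were called at a Benjamini-Hochberg adjusted p under 0.05. The script was tested on simulated data.

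Grb10 and the lists of genes were chosen with earlier results of these data known. Tests of Grb10 between days and of its interaction had been planned and are left out, because the choice of the gene used all its values. Other genes named are Kat2a, Grb7, Grb14, the most significant called genes of each list (up to 4 between genotypes and up to 2 elsewhere), the 3 nearest tested neighbours on each side, the 5 most similar genes on each measure and the 3 called genes next by t; the other neighbours, Krt42, Glra1, Nccrp1, Meg3, Nedd4, Insr, Igf1r, Igf2, Akt2, Ptpn1, Sh2b2 and further values of list members were chosen after their values were seen. A result for 1 gene of the lists is not reported here.

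The number of a replicate may mark material handled together. Across genes, residuals of a null sample and the floxed sample with its number had a correlation of 0.247 to 0.424 at day 5 and 0.270 to 0.372 at day 3. Between days it was 0.123 to 0.282 for the null line and 0.0814 to 0.214 for the floxed line. The replicate number was a block in an alternative. Other alternatives were the pseudocount, the filter, TMM and upper-quartile scaling, centring of chromosome 11, edgeR 4.0.16 and DESeq2 1.42.0 on the whole reads, fits of the compared groups alone, and leaving out libraries.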

Additional observations from a re-analysis of the deposited data

Results flagged for a closer look

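The genotype difference of Grb10 drew attention because every null library was lower at day 5 than at day 3 while every floxed library was higher, giving an interaction of -3.61 ± 0.25 on the log2 scale. The difference was not tested. For 4 further genes of the named set, the test of the interaction itself passed (limma, Benjamini-Hochberg adjustment). Because Igf2r, Dcxr and Fstl4 were named by this same test within their lists, their passing is no separate support. Evpl was named for its genotype difference at day 5. Igf2r had -0.79 ± 0.12 (adjusted p = 0.0308), Evpl 1.15 ± 0.20 (0.0345), Dcxr 1.24 ± 0.20 (0.0308) and Fstl4 1.90 ± 0.33 (0.0345). The last 3 were taken from the list of chromosome 11 genes. Of 1331 other genes tested on that chromosome, the interaction called 4 higher (0.301%) and 3 lower (0.225%). Over all genes tested the shares were 0.247% and 0.229%. Single libraries were not left out for Evpl. Leaving out single libraries ended the calls of Igf2r (adjusted p up to 0.0805), Dcxr (up to 0.0825) and Fstl4 (up to 0.0950). With 3 samples a group, no sample was judged for lying far from its group.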

How the results depend on the processing

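Grb10 kept its direction under every alternative run. Leaving out single libraries, its log2 change ranged over -6.81 to -6.56 at day 5, -3.16 to -2.86 at day 3, -2.81 to -2.50 between days in the null line, 0.90 to 1.14 between days in the floxed line and -3.80 to -3.50 for the interaction. Centring chromosome 11 moved it to -7.03 and -3.44, and keeping only the libraries numbered 1 and 2, a choice made after seeing the data, to -2.72 at day 3. The count of genes called at day 3 was 480 with chromosome 11 centred (46.0% higher, against 66.9%), 1703 with DESeq2, 1866 with the replicate block (58.7% higher) and 383 with only libraries 1 and 2, and that at day 5 was 2591 with only libraries 1 and 2. The interaction count was 511 with DESeq2, 443 with the replicate block and 35 with only libraries 1 and 2. Leaving out single libraries gave 426 (without null day 3 library 3) to 1135 at day 3, 3225 to 4560 at day 5, 6282 to 7744 in the null line, 5419 to 7164 in the floxed line and 3 (without null day 3 library 1) to 115 for the interaction. Of the 117 gene results refitted under every setting, the block changed the side of the threshold for Grb7 (adjusted p = 0.0358) and Rrm2 (0.0468), both at day 3; other values printed in the text were not refitted one by one. With the block, 8 insulin and IGF genes were lower at day 5, against 6. Upper-quartile scaling gave 59.0% higher at day 5, against 49.2%. Values that changed sign with chromosome 11 centred were, at day 3, Grb7 (-0.056), Rps6kb1 (-0.050), Cobl (-0.33) and Sec61g (-0.30), and at day 5 Hus1 (-0.021), Ikzf1 (-0.33) and Sec61g (-0.34). With only libraries 1 and 2 they were Parvb (0.012) and Hnrnpu (0.018) at day 3 and Ikzf1 (-0.088) and Sec61g (-0.032) at day 5. Leaving out single libraries, Cobl (-0.044 to 0.190), Hnrnpa3 (-0.041 to 0.070) and Sec61g (-0.0014 to 0.153) at day 3 and Parvb (-0.015 to 0.243), Ikzf1 (-0.240 to 0.222) and Sec61g (-0.027 to 0.102) at day 5 spanned 0. Of 94 called gene results, 68 were kept under every setting and 26 lost under some; the cause was not tested. The fit of compared groups alone was not run for the interaction, which needs all 4 groups.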
